A study of Mus musculus with 10 samples.

Results

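The comparison described here sets MC3T3-E1 cells kept for 14 d in osteogenic medium against the same cells at confluence on day 0. The samples were chosen by their labels, the pair named 14d and the pair named Confluent, which are 4 of the 10 samples of the series. MC3T3-E1 subclone 4 is a mouse pre-osteoblast line from calvaria, one clone grown in αMEM with 10% serum. At confluence, taken as day 0, the medium was made osteogenic by adding β-glycerophosphate to 10 mM and ascorbic acid to 50 µg/ml, and RNA was taken from subconfluent cells, confluent cells and cells at 24 h, 14 d and 21 d, with replicates A and B at each stage. The confluent group had therefore seen growth medium alone, and the 14 d group had been in osteogenic medium since confluence. No culture kept for 14 d without that medium was used here, so time, cell density and medium change together in this comparison and cannot be told apart. The comparison answers which genes differ between confluent cells at day 0 and cells after 14 d in osteogenic medium.

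An osteoblast makes bone by secreting a matrix rich in type I collagen and then letting calcium phosphate crystals grow in it. Runx2 and Sp7 are the transcription factors that set up the lineage, alkaline phosphatase frees phosphate for the mineral, and sialoprotein and osteocalcin are late products of the mineralizing cell. Ascorbic acid is needed by the enzymes that hydroxylate collagen, and β-glycerophosphate is a source of phosphate.

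Reads were paired, of 51 bases. The deposited gene counts summed to 49717716 in confluent replicate A and 162939333 in confluent replicate B, and to 136785258 and 48799711 in the 14 d replicates A and B. At least 1 count was seen for 22665 and 24546 genes in the confluent replicates and for 24875 and 23199 genes at 14 d. In both stages the deeper library therefore detected more genes. The 10 most counted genes took 8.33% and 7.91% of the counts of the confluent replicates and 13.7% and 13.4% of those at 14 d. Labels do not say whether replicates A and B came from separate cultures, so p-values measure the spread between these samples, which may be technical. The confluent libraries share their pair of index sequences with the subconfluent and 24 h ones, while the 14 d libraries share another with those of 21 d, so stage and index pair cannot be told apart in this comparison. For some of the named genes the changes from confluence to 24 h and from 14 d to 21 d, each inside one index pair, are given beside the change at 14 d. The first of them shares the confluent samples with the comparison at 14 d and the second shares the 14 d samples. The 24 h replicates agreed less well, with an SD of log2 A/B of 0.67 where it was 0.31 at confluence, over genes with at least 10 counts in each sample, so changes to 24 h are less certain.

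At 14 d 12 of 18 genes for bone mineral and matrix proteins were called higher than at confluence and 1 lower, and the sialoprotein gene Ibsp was at 4081 to 4374 RPKM against 196 to 205 RPKM. Of 17 tested chondrocyte markers 10 were called higher and 1 lower, and 8 of all 19 were under 1 RPKM in all 4 samples. Genes for some secreted Wnt antagonists, complement proteins, Igf2 and minor collagens also rose, while Sfrp2, the most abundant gene of the Wnt list at confluence, fell. Lower calls were made on 13 of 28 tested genes for DNA replication, 11 of 24 for mitosis, 16 of 28 for cholesterol and fatty acid synthesis and 7 of 17 for amino acid supply, and higher calls in these lists on 1 gene, of amino acid supply. In the edgeR quasi-likelihood fit, 2705 of 20808 genes tested passed an adjusted p-value of 0.05 with more than 2-fold change, which is 13.0% of them, and these are the genes called below. Of all tested genes 9.15% were called higher (1903 genes) and 3.85% lower (802 genes), shares that each list count is to be set against. The median log2 fold change was 0.03. The split moved with scaling and test. It was 1434 higher and 1447 lower with library size alone, 524 and 819 in limma-trend fits of log2(RPKM + 1), and 1220 and 1303 in those of log2(RPKM + 0.1). Library size alone also moved the median of all genes to -0.20. Bulk RNA was sequenced, so fewer cells of a kind and less RNA in each cell cannot be told apart.

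Calls leaned to the higher side among scarce genes. Among 4202 genes with a mean between 0.1 and 1 CPM, 648 were called higher and 165 lower, while among the 3743 genes with at least 50 CPM the counts were 202 and 98. Protein-coding genes gave 1518 higher and 607 lower calls of 13964 tested. In 2704 of the 2705 calls both replicates of one stage lay above both of the other. Calls with 2 replicates a stage nearly require this. It therefore adds no support to them, here or where the stages of called genes are said not to overlap. RPKM values are the authors' own scale, and for 14804 genes over 1 RPKM at both stages the fitted log2 fold change exceeded the log2 ratio of mean RPKM by a median of 0.22, so ratios read from the levels run lower than the fitted changes. From confluence to 24 h 2.13% of the tested genes were called (1.76% higher, 0.365% lower), and from 14 d to 21 d 3.97% (1.52% higher, 2.45% lower).

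Of the 18 genes for bone mineral and matrix proteins, all tested, 12 were called higher and 1 lower at 14 d, where 9.15% and 3.85% of all tested genes were, with a median log2 fold change of 2.78 against 0.03 over all genes. Ibsp, a matrix protein that binds hydroxyapatite, was at 196 and 205 RPKM in the confluent replicates and at 4081 and 4374 RPKM at 14 d. The log2 fold change at 14 d came to 4.62, with a standard error (SE) of 0.26 and an adjusted p of 4.4e-05. Mepe, a phosphoglycoprotein of late osteoblasts and osteocytes, was at 0.0876 and 0.116 RPKM in the confluent replicates and at 9.77 and 11.6 RPKM at 14 d. For it the fit gave 6.86 (SE 0.32, adjusted p = 2.6e-05) on the log2 scale. Phex, a membrane endopeptidase mutated in inherited low phosphate, was at 0.291 and 0.214 RPKM in the confluent replicates and at 3.94 and 3.78 RPKM at 14 d and changed by a log2 fold change of 4.16 (SE 0.25, adjusted p = 6.4e-05). Sparc, a collagen-binding glycoprotein and already among the abundant RNAs at confluence, was at 1826 and 1759 RPKM in the confluent replicates and at 6068 and 5764 RPKM at 14 d, with a log2 fold change of 1.94 (SE 0.10, adjusted p = 4.1e-05). For each of these 4 genes the 2 groups of replicates did not overlap. Alpl, alkaline phosphatase, and Dmp1, another acidic phosphoprotein, had log2 fold changes of 2.43 and 2.90. Inside the index pairs the log2 fold change from confluence to 24 h was 2.46 for Ibsp, 2.59 for Mepe, -0.25 for Phex and 0.65 for Sparc. From 14 d to 21 d it was -0.81, -0.38, -0.88 and -0.72, and for Alpl and Dmp1 -1.47 and 1.88, so Dmp1 alone of these 6 rose further.

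Osteocalcin genes rose as well, with less certainty on which copy. Bglap2 was at 18.1 and 23.3 RPKM in the confluent replicates and at 2193 and 1972 RPKM at 14 d and Bglap3 at 2.46 and 2.71 RPKM in the confluent replicates and at 69.0 and 206 RPKM at 14 d. Their log2 fold changes were 6.86 (SE 0.62, adjusted p = 3.2e-04) and 5.96 (SE 0.65, adjusted p = 6.7e-04), beside 6.44 for Bglap itself. Of all stretches of 51 bases in their exons, 56.3% for Bglap, 87.6% for Bglap2 and 11.3% for Bglap3 occur in another gene too, and how such reads were counted is not given in the sources used here. The 14 d replicates of Bglap3 stood apart at 69.0 and 206 RPKM, both above both confluent replicates, and the log2 fold change of Bglap3 was 4.93 without 14 d replicate B and 6.55 without 14 d replicate A.

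Genes acting on phosphate were followed further, and those outside the rule for named genes were chosen after their values were seen. Phospho1, a phosphatase that acts inside matrix vesicles, was at 39.3 and 40.3 RPKM in the confluent replicates and at 293 and 276 RPKM at 14 d. Smpd3, the sphingomyelinase those vesicles need, was at 16.8 and 17.1 RPKM in the confluent replicates and at 91.2 and 93.8 RPKM at 14 d, and Ifitm5, a membrane protein particular to osteoblasts, at 8.87 and 11.3 RPKM in the confluent replicates and at 152 and 159 RPKM at 14 d. Their log2 fold changes were 3.05 (SE 0.12, adjusted p = 1.1e-05), 2.67 (SE 0.41, adjusted p = 0.0029) and 4.16 (SE 0.25, adjusted p = 5.8e-05). Phospho1 is uncertain, since 85.3% of its stretches of 51 bases lie in Zfp652 too and its exons overlap those of Abi3 on the opposite strand, which had more counts. Smpd3 overlaps Prmt7 in the same way, and Ifitm5 shares 25.2% of its stretches with Gm45717. All 3 had lower fitted values at 21 d than at 14 d, with log2 fold changes of -2.45, -1.80 and -2.12. The phosphate transporter gene Slc20a1, also named afterwards, was the 1 member called lower, from 12 and 10.5 RPKM to 4.08 and 3.64 RPKM, a log2 fold change of -1.33 (SE 0.10, adjusted p = 1.4e-04). Spp1, which encodes osteopontin, did not pass the test, with 235 and 216 RPKM at confluence and 284 and 283 RPKM at 14 d (adjusted p = 0.064), and its log2 fold change from 14 d to 21 d was 2.05. Mgp, an inhibitor of calcification, was at 2567 and 2909.9 RPKM in the confluent replicates and at 4625 and 3886 RPKM at 14 d, and its log2 fold change of 0.85 had an adjusted p of 0.018 with less than 2-fold change.

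**Figure D1:**
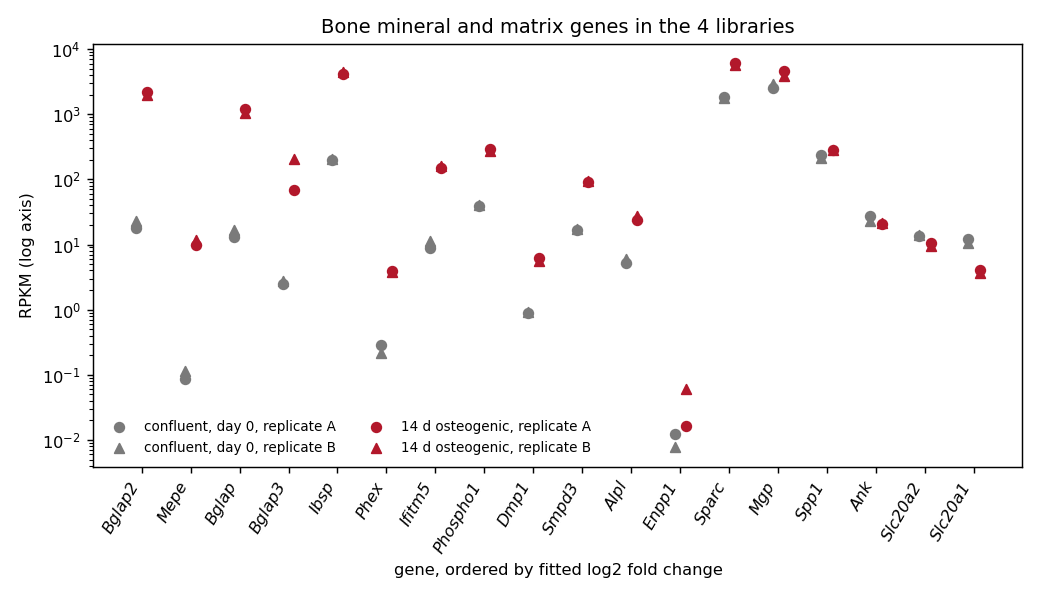
Levels of the 18 bone mineral and matrix genes in RPKM on a log axis, with circles for replicate A and triangles for replicate B, confluent cells in grey and 14 d cells in red, ordered by the fitted log2 fold change. Ibsp lies at 196 and 205 RPKM in the grey points and at 4081 and 4374 RPKM in the red ones, while Slc20a1 at the right end is lower at 14 d.

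Among 18 osteoblast transcription factors 2 were called higher and 3 lower, where 9.15% and 3.85% of all tested genes were, with a median of -0.29. Dlx3, a homeodomain factor of mineralizing tissues, was at 0.734 and 1.07 RPKM in the confluent replicates and at 11.7 and 11.7 RPKM at 14 d, with a log2 fold change of 3.90 (SE 0.19, adjusted p = 2.6e-05). Sp7 was the other one, with a log2 fold change of 1.37. Runx2 was at 26 and 23.8 RPKM in the confluent replicates and at 34.2 and 34.0 RPKM at 14 d, and its log2 fold change of 0.67 passed at an adjusted p of 0.01 without reaching 2-fold. Called lower were Twist2, which restrains Runx2 early in the lineage, Msx2 and Prrx2, homeobox genes of the skull mesenchyme. Twist2 was at 1.52 and 1.35 RPKM in the confluent replicates and at 0.261 and 0.190 RPKM at 14 d, Msx2 at 3.17 and 3.42 RPKM in the confluent replicates and at 0.946 and 0.971 RPKM at 14 d and Prrx2 at 169 and 169.7 RPKM in the confluent replicates and at 57.9 and 61.5 RPKM at 14 d. For each of them both replicates at 14 d lay under both confluent replicates, with log2 fold changes of -2.40 (SE 0.41, adjusted p = 0.0044), -1.56 (SE 0.11, adjusted p = 1.3e-04) and -1.29 (SE 0.17, adjusted p = 0.0016). Over the first 24 h these were 0.28, 0.17 and 0.13. Exons of Twist2 share bases with Gm29100 on the opposite strand, which had more counts, and the strand handling is not given in the sources used here, so its change is uncertain, and limma-trend on log2(RPKM + 1) did not call it. Atf4, the most abundant member, was at 252 and 247 RPKM in the confluent replicates and at 114 and 111 RPKM at 14 d with a log2 fold change of -0.93 (SE 0.14, adjusted p = 0.0025), and it was called lower with library size alone and in both limma-trend fits.

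Of 10 genes of osteocytes, the cells that osteoblasts become inside bone, 7 could be tested and 4 were called higher, with a median of 2.90. The 4 are Mepe, Phex, Dmp1 and Dkk1, and the count was 2 when at least 10 counts were asked of every sample. Dkk1, a secreted Wnt inhibitor, had 3 counts at confluence and 27 at 14 d, a ratio of 12 with a 95% counting interval from 3.69 to 61.7. Its call was lost when any 1 of the 4 replicates was left out, which made the count 3, and in both limma-trend fits. Such intervals, and the lower bounds given below, cover counting error alone. Sost and Ptprz1 had 0 counts in all 4 samples, and Fgf23 had none at 14 d. Irx5 and Pdpn did not pass the test, with log2 fold changes of 0.14 and 0.00.

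Of 26 collagen genes 25 were tested and 9 were called, all higher, with a median of 0.86 against 0.03. Col1a1 and Col1a2, the chains of type I collagen, were at 6278 and 6152 RPKM and 3384 and 3248 RPKM at confluence and at 10422 and 8996 RPKM and 5444 and 5004 RPKM at 14 d. They passed the adjusted p but not 2-fold, with log2 fold changes of 0.86 (SE 0.21, adjusted p = 0.019) and 0.87 (SE 0.17, adjusted p = 0.0072). Larger changes were found in minor collagens. Col22a1, a collagen of tissue junctions, was at 0.00317 and 0.0209 RPKM in the confluent replicates and at 10.5 and 10.3 RPKM at 14 d. Col11a2, a chain of the fibril collagen XI, was at 3.26 and 4.68 RPKM in the confluent replicates and at 201 and 219 RPKM at 14 d, and Col15a1, a collagen of basement membrane zones, at 5.84 and 6.48 RPKM in the confluent replicates and at 55.3 and 48.5 RPKM at 14 d. None of these groups of replicates overlapped, and the log2 fold changes were 9.57 (SE 0.40, adjusted p = 1.5e-05), 5.94 (SE 0.21, adjusted p = 8.4e-06) and 3.29 (SE 0.27, adjusted p = 2.1e-04). Col13a1, a transmembrane collagen, had no count at confluence and 2.87 and 2.36 RPKM at 14 d, which makes it at least 679.9-fold higher when 3 counts over the group are allowed for confluence. Col24a1, a fibril collagen of bone, was at 1.27 and 1.53 RPKM in the confluent replicates and at 5.73 and 5.13 RPKM at 14 d, a log2 fold change of 2.17 (SE 0.28, adjusted p = 0.0013). Col4a1 and Col4a2, neighbours that form the basement membrane network, had log2 fold changes of 1.86 and 1.80, Col4a2 being chosen after its value was seen. Without confluent replicate B the log2 fold change of Col22a1 was 11.79. Inside the index pairs, Col22a1 was at 0.97 from confluence to 24 h and at -1.33 from 14 d to 21 d, and Col11a2 at 0.79 and -1.78.

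Among 25 genes for collagen modification and crosslinking 8 were called higher and none lower, with a median of 0.53. P4ha1 and P4ha2, catalytic subunits of prolyl 4-hydroxylase, were at 32.3 and 29.7 RPKM and 12.9 and 12.5 RPKM at confluence and at 89.7 and 107 RPKM and 30.4 and 33.8 RPKM at 14 d. Their log2 fold changes were 1.88 (SE 0.13, adjusted p = 1.1e-04) and 1.55 (SE 0.13, adjusted p = 2.3e-04). Lox, which crosslinks collagen, was at 53.6 and 43.9 RPKM in the confluent replicates and at 109.8 and 119 RPKM at 14 d, with a log2 fold change of 1.45 (SE 0.20, adjusted p = 0.0017), and it was already at 1.52 from confluence to 24 h. Loxl4 had a log2 fold change of 1.69 and Tmem38b, an ER channel mutated in brittle bone disease, one of 1.36. The most abundant members did not pass 2-fold, among them the collagen chaperone Serpinh1 at 854 and 825 RPKM and then 738 and 719 RPKM. With limma-trend on log2(RPKM + 1) the count was 4 in place of 8, without Tmem38b.

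Proteoglycans and matricellular proteins gave 5 higher and 1 lower call among 22 genes, with a median of 0.28, and library size alone called 2 lower. Omd, a keratan sulfate proteoglycan of bone, was at 8.39 and 10.2 RPKM in the confluent replicates and at 122 and 180.4 RPKM at 14 d, and Prelp, a leucine-rich anchor of collagen to membranes, at 19.5 and 17.7 RPKM in the confluent replicates and at 125 and 121 RPKM at 14 d. Fn1, the fibronectin gene, was at 552 and 493 RPKM in the confluent replicates and at 1464 and 1416 RPKM at 14 d. These 3 genes had log2 fold changes of 4.24 (SE 0.25, adjusted p = 6.1e-05), 2.94 (SE 0.12, adjusted p = 1.5e-05) and 1.68 (SE 0.30, adjusted p = 0.0056), and their groups did not overlap. Eln, elastin, had 3 counts at confluence and 120 at 14 d, a ratio of 53.3 with a counting interval from 17.8 to 262, and no call with limma-trend on log2(RPKM + 1). Thbs1 was at 83.5 and 67.8 RPKM in the confluent replicates and at 164 and 161 RPKM at 14 d, but its call was lost with library size alone and when any 1 of the 4 replicates was left out. Tgfbi, an adhesion protein named for its response to TGF-β, went the other way, from 22.5 and 19.1 RPKM to 1.04 and 0.854 RPKM. Its log2 fold change was -4.23 (SE 0.21, adjusted p = 3.2e-05), beside -1.56 from confluence to 24 h and -0.68 from 14 d to 21 d.

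Matrix proteases and their inhibitors had 4 higher calls among 17 tested of 20, with a median of 0.43. Mmp13, a collagenase made by late osteoblasts and hypertrophic chondrocytes, was at 10.5 and 9.72 RPKM in the confluent replicates and at 66.2 and 78.7 RPKM at 14 d. Timp4, an inhibitor of such enzymes, was at 0.104 and 0.0525 RPKM in the confluent replicates and at 13.0 and 13.6 RPKM at 14 d. Neither gene's stages overlapped, with log2 fold changes of 3.06 (SE 0.15, adjusted p = 2.6e-05) and 7.78 (SE 0.29, adjusted p = 1.0e-05). The log2 fold change of Timp4 was 7.19 without confluent replicate B. Inside the index pairs the changes were 0.20 and 0.26 to 24 h and 0.25 and 0.18 after 14 d. The other 2 calls were on less than 1 RPKM. Mmp23 lost its call with any 1 replicate left out, with library size alone and with the replicate letter as a block, and Adamts15 without confluent replicate B or 14 d replicate B. Neither was called with limma-trend on log2(RPKM + 1). The list's count was 2 or 3 without a replicate and 1 where every sample had to have 10 counts. The abundant Mmp2 and Mmp14, at 573 and 535 RPKM and 243 and 220.5 RPKM at confluence, had log2 fold changes of 0.29 and 0.45.

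The Wnt pathway list had 14 higher and 1 lower calls among 28 tested of 31, with a median of 1.14 against 0.03. Some secreted antagonists were among them. Wif1, which binds Wnt ligands, was at 4.92 and 5.91 RPKM in the confluent replicates and at 116 and 119.6 RPKM at 14 d, and its log2 fold change was 4.65 (SE 0.12, adjusted p = 5.1e-06). Dkk2, which binds the co-receptors, was at 0.0956 and 0.105 RPKM in the confluent replicates and at 1.64 and 1.61 RPKM at 14 d, a log2 fold change of 4.21 (SE 0.25, adjusted p = 5.9e-05). Notum, an enzyme that removes the lipid from Wnt ligands, was at 0.575 and 0.706 RPKM in the confluent replicates and at 3.80 and 2.69 RPKM at 14 d, and the antisense Notumos overlaps its exons. Of the ligands, Wnt11 was at 0.142 and 0.139 RPKM in the confluent replicates and at 4.42 and 4.89 RPKM at 14 d, with a log2 fold change of 5.26 (SE 0.25, adjusted p = 2.6e-05). Tcf7, a transcription factor at the end of the pathway, was at 18 and 20.0 RPKM in the confluent replicates and at 103 and 98.0 RPKM at 14 d, with a log2 fold change of 2.62 (SE 0.17, adjusted p = 7.7e-05). Nkd2 and Axin2, feedback inhibitors inside the cell, had log2 fold changes of 3.36 and 2.01, and the co-receptor gene Lrp5 one of 2.09. None of the values named here overlapped between the stages. Notum, Axin2 and Lrp5 were chosen after their values were seen. From confluence to 24 h the log2 fold change was already 2.26 for Wif1, 1.92 for Wnt11, 1.98 for Dkk2 and 3.46 for Nkd2, and from 14 d to 21 d it was -0.96, -0.80, 1.10 and -1.88. Sfrp2 and Dkk3, the most abundant members at confluence, are secreted antagonists or related to them, and both had lower values at 14 d. Sfrp2 was the 1 called lower, from 177 and 155 RPKM to 66.5 and 68.4 RPKM, and this call was lost without confluent replicate A, while Dkk3 had a log2 fold change of -0.45 (SE 0.10, adjusted p = 0.011). The higher count was 9 with limma-trend on log2(RPKM + 1), where scarce genes such as Nkd2 were not called.

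For the BMP and TGF-β pathway 7 genes were called higher and 4 lower of 27 tested of 32, and the median was 0.00, falling under 0 with DESeq2's size factors and to -0.23 with library size alone. Among its binding proteins and receptors, Ltbp4, which stores latent TGF-β in the matrix, was at 4.15 and 4.33 RPKM in the confluent replicates and at 16.6 and 14.7 RPKM at 14 d, and Tgfbr3, the co-receptor betaglycan, at 5.69 and 5.16 RPKM in the confluent replicates and at 20.3 and 20.4 RPKM at 14 d. Chrdl1, a BMP antagonist, was at 32.1 and 30.8 RPKM in the confluent replicates and at 90.7 and 88.9 RPKM at 14 d. All 3 rose without overlap, with log2 fold changes of 2.10 (SE 0.17, adjusted p = 2.3e-04), 2.12 (SE 0.12, adjusted p = 4.1e-05) and 1.73 (SE 0.26, adjusted p = 0.0026). The BMP antagonist Grem1 fell from 3.94 and 3.29 RPKM to 0.450 and 0.453 RPKM, and its log2 fold change was -2.78 (SE 0.18, adjusted p = 7.4e-05). Id2, a helix-loop-helix inhibitor and BMP target, was at 25.2 and 23 RPKM in the confluent replicates and at 4.79 and 5.00 RPKM at 14 d, a log2 fold change of -2.08 (SE 0.10, adjusted p = 2.6e-05), while the related Id4, chosen after its value was seen, had one of 1.05 and Id3, at 112 and 128 RPKM and then 73.5 and 76.3 RPKM, did not pass. Inside the index pairs Grem1 was at -0.92 to 24 h and 0.90 after 14 d, and Id2 at -0.31 and -0.64. Bmp2 had no count in any of the 4 samples. The 7 higher calls were 4 with limma-trend on log2(RPKM + 1). Id4 lost its call there, with log2(RPKM + 0.1), with library size alone, with no filter on low counts and without confluent replicate B or 14 d replicate B.

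IGF, FGF and PDGF genes gave 8 higher and 1 lower call of 22 tested of 23, with a median of 0.37. Igf2, a growth factor, was at 0.767 and 0.819 RPKM in the confluent replicates and at 129 and 139 RPKM at 14 d. Its log2 fold change was 7.62 (SE 0.19, adjusted p = 5.1e-06), and 61.2% of its stretches of 51 bases also lie in Gm49394, a readthrough gene over the same exons. Igfbp4 and Igfbp2, binding proteins of these factors, were at 10.1 and 10.9 RPKM and 3.91 and 6.66 RPKM at confluence and at 112 and 108 RPKM and 33.1 and 34.7 RPKM at 14 d, with log2 fold changes of 3.60 (SE 0.10, adjusted p = 5.1e-06) and 2.89 (SE 0.31, adjusted p = 6.3e-04). Spry1, a feedback inhibitor of FGF receptors, had one of 2.22. Igf1, the 1 gene called lower, was chosen after its value was seen and went from 4.67 and 4.10 RPKM to 1.73 and 1.70 RPKM, a log2 fold change of -1.14 (SE 0.11, adjusted p = 3.5e-04). At 24 h against confluence Igf2 was at 2.55 and Igfbp4 at 1.37, and from 14 d to 21 d they were at -0.23 and 1.12. With library size alone the list had 5 higher and 3 lower calls, and with limma-trend on log2(RPKM + 1) 4 higher and 1 lower, which was not Igf1. Fgf2 was called too, but shares exon bases with Nudt6 on the opposite strand and lost the call without confluent replicate A, confluent replicate B or 14 d replicate B.

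Signals from osteoblasts to osteoclasts gave 1 higher and 3 lower calls of 10 tested of 11, where 9.15% and 3.85% of all tested genes were called. The median was -0.37. Tnfrsf11b, osteoprotegerin, the decoy receptor for RANKL, was at 18.7 and 18.4 RPKM in the confluent replicates and at 71.6 and 77.1 RPKM at 14 d, which the fit put at 2.22 (SE 0.19, adjusted p = 2.8e-04) on the log2 scale. It was 0.95 from confluence to 24 h and -2.44 from 14 d to 21 d. Tnfsf11, which encodes RANKL, had 1 count in the 4 samples together. Ccl2, a chemokine for monocytes, was at 4.40 and 5.01 RPKM in the confluent replicates and at 1.02 and 1.25 RPKM at 14 d, and Lif and Efnb2 were the other genes called lower, with log2 fold changes of -1.84 (SE 0.22, adjusted p = 9.6e-04), -1.43 (SE 0.22, adjusted p = 0.003) and -1.22 (SE 0.17, adjusted p = 0.002). Lif and Efnb2 were not called with limma-trend on log2(RPKM + 1). Csf1, the most abundant member at confluence, was at 85.5 and 73.4 RPKM in the confluent replicates and at 61.7 and 62.6 RPKM at 14 d and did not pass (adjusted p = 0.44).

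**Figure D2:**
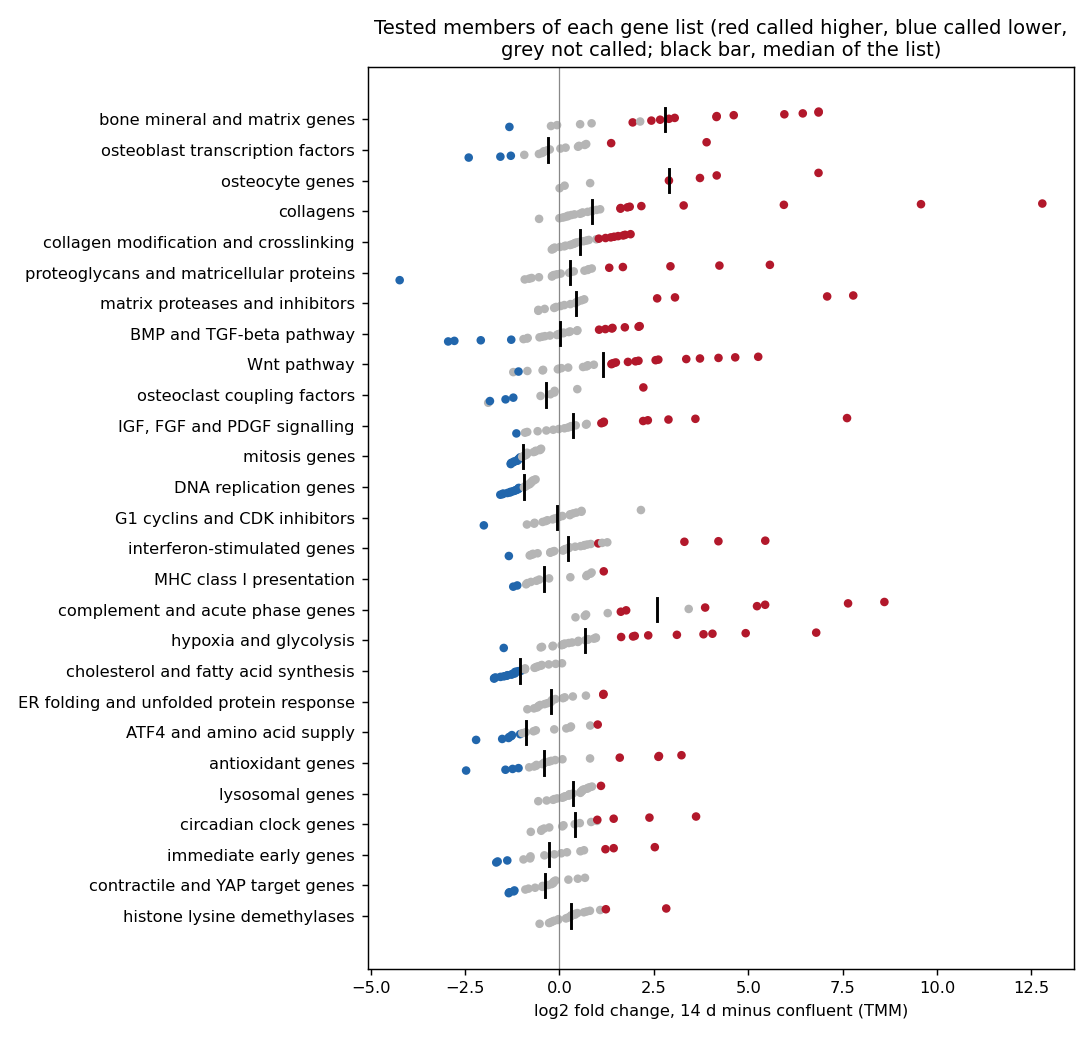
Fitted log2 fold change, 14 d minus confluent with TMM scaling, of each tested member of the gene lists other than markers of other cell types, red where called higher, blue where called lower and grey where not called, with a black bar at the median of the list. Bone mineral and matrix genes have a median of 2.78, complement and acute phase genes 2.59, DNA replication genes -0.93 and cholesterol and fatty acid synthesis -1.06, and the median of the BMP and TGF-β genes turns negative with DESeq2's size factors or library size alone.

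Of 24 mitosis genes 11 were called lower and none higher, with a median of -0.97, and 20 passed the adjusted p with any fold. Plk1, a kinase of mitotic entry, was at 50.1 and 47.2 RPKM in the confluent replicates and at 17.7 and 16.5 RPKM at 14 d, and Aurka, a kinase of the spindle poles, at 31.8 and 31.8 RPKM in the confluent replicates and at 11.2 and 11.2 RPKM at 14 d. Ube2c, which tags cyclins for destruction, was at 98.9 and 108 RPKM in the confluent replicates and at 40.1 and 33.8 RPKM at 14 d. All 14 d values lay below the confluent ones, with log2 fold changes of -1.29 (SE 0.12, adjusted p = 3.3e-04), -1.29 (SE 0.19, adjusted p = 0.0024) and -1.27 (SE 0.17, adjusted p = 0.0015). Mki67, the usual marker of cycling cells, was at 27.7 and 25.9 RPKM in the confluent replicates and at 15.2 and 13.5 RPKM at 14 d, a log2 fold change of -0.69 (SE 0.20, adjusted p = 0.04) that did not reach 2-fold. Of the called genes, Bub1 lost the call with any 1 replicate left out and Cenpe without 14 d replicate B. Without that replicate 7 genes were called, and 18 with library size alone or with limma-trend on log2(RPKM + 1). At 24 h against confluence Plk1 was at -0.75 and Mki67 at -0.67, and from 14 d to 21 d they were at -1.95 and -1.93.

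All 28 DNA replication genes had a lower fitted value at 14 d that passed the adjusted p, and 13 of them were called at 2-fold, with a median of -0.93. Gins1 and Mcm10, needed to start replication forks, were at 14.1 and 13.4 RPKM and 7.49 and 6.87 RPKM at confluence and at 4.81 and 3.14 RPKM and 2.36 and 1.99 RPKM at 14 d. Orc1, of the origin recognition complex, was at 4.01 and 3.99 RPKM in the confluent replicates and at 1.30 and 1.14 RPKM at 14 d, Mcm5, of the replicative helicase, at 85.0 and 75.6 RPKM in the confluent replicates and at 27.4 and 25.7 RPKM at 14 d, and Rrm2, which supplies deoxynucleotides, at 76.7 and 65.3 RPKM in the confluent replicates and at 24.9 and 24.8 RPKM at 14 d. The stages did not overlap for any of these 5 genes, and the log2 fold changes ran from -1.57 (SE 0.24, adjusted p = 0.0027) for Gins1 to -1.30 (SE 0.13, adjusted p = 4.8e-04) for Rrm2. Pcna, the sliding clamp and the most abundant member, was at 148 and 142 RPKM in the confluent replicates and at 78.5 and 74.4 RPKM at 14 d, a log2 fold change of -0.71, with 18.9% of its stretches shared with Pcna-ps2. Mcm5 was at -0.63 from confluence to 24 h and at -2.26 from 14 d to 21 d. Library size alone called 21 of the 28.

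Of 21 regulators of G1 19 were tested and 1 was called, lower, near the 3.85% of all tested genes. The median was -0.05, with 2 lower calls with library size alone. Ccne1, the cyclin that drives entry into S phase, was at 13.9 and 12.7 RPKM in the confluent replicates and at 3.02 and 2.69 RPKM at 14 d, with a log2 fold change of -2.0 (SE 0.17, adjusted p = 2.2e-04). Cdkn1a, the inhibitor p21, was at 165 and 190.0 RPKM in the confluent replicates and at 187 and 184 RPKM at 14 d, and its log2 fold change of 0.28 had an adjusted p of 0.066. Myc and Ccnd1 had log2 fold changes of 0.00 and 0.45. Cdkn2a and Cdkn2b had no count in the 4 samples. Ccne2 and Cdk2 were named, as Myc and Ccnd1 were, after their values were seen, with log2 fold changes of -0.05 and -0.67. Exons of Ccnd1 and Ccne2 overlap those of LTO1 and Ints8 on the opposite strand, which had more counts.

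Of 29 tested of 32 interferon-stimulated genes 4 were called higher and 1 lower (2 lower with library size alone), where 9.15% and 3.85% of all tested genes were. The median was 0.24. Dhx58, a regulator of RNA sensing, was at 0.798 and 1.01 RPKM in the confluent replicates and at 7.21 and 8.35 RPKM at 14 d, with a log2 fold change of 3.31 (SE 0.23, adjusted p = 1.0e-04). Oas2 and Oas3, enzymes that sense double-stranded RNA, reached at most 0.345 RPKM. Xaf1, at 1.28 and 1.44 RPKM and then 2.56 and 2.22 RPKM, was just past 2-fold and was not called with library size alone, with no filter on low counts, in the limma-trend fits, or without confluent replicate A or 14 d replicate A. Ifi44 was lower, at 0.758 and 0.768 RPKM and then 0.238 and 0.284 RPKM, and its log2 fold change was -1.34 (SE 0.16, adjusted p = 0.0011) here and 3.56 from 14 d to 21 d. Isg15, a ubiquitin-like protein named after its values were seen, had a log2 fold change of -0.70 at 14 d and of 1.54 from 14 d to 21 d. With limma-trend on log2(RPKM + 1) 1 gene was called higher and Oas2, Oas3 and Ifi44 were not called.

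Antigen presentation by MHC class I had 1 higher and 2 lower calls among 14 genes, where 9.15% and 3.85% of all tested genes were called. The median was -0.40. B2m, the shared light chain, was at 381 and 356 RPKM in the confluent replicates and at 383 and 392 RPKM at 14 d and did not pass. H2-T23 was the higher one, at 11.7 and 12.4 RPKM and then 24.1 and 22.7 RPKM, and was not called with library size alone or in the limma-trend fits. Psmb8, an immunoproteasome subunit whose exons overlap Gm20496 on the opposite strand, went from 10.1 and 12.2 RPKM to 4.26 and 4.61 RPKM, but not to a call without confluent replicate B, and Nlrc5 lost its call in the limma-trend fits and without confluent replicate A, 14 d replicate A or 14 d replicate B. Library size alone called 4 members lower.

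Complement and acute phase genes had 7 higher calls and none lower among 12 tested of 14, with a median of 2.59. C3, the central protein of complement, was at 0.0873 and 0.0458 RPKM in the confluent replicates and at 10.2 and 10.5 RPKM at 14 d. Cp, the copper carrier ceruloplasmin, was at 4.45 and 4.67 RPKM in the confluent replicates and at 57.0 and 56.8 RPKM at 14 d. The confluent and 14 d values of these 2 genes were separated by more than 10-fold, with log2 fold changes of 7.64 (SE 0.32, adjusted p = 1.5e-05) and 3.86 (SE 0.19, adjusted p = 3.0e-05). Lcn2, an iron-binding acute phase protein, had no count at confluence and 0.333 and 0.345 RPKM at 14 d, at least 35.5-fold higher. Serping1, the C1 inhibitor, had 1 count at confluence and 33 at 14 d, a ratio of 43.9 with a counting interval from 7.35 to 1787. C1s1 and C1rb, proteases of the classical pathway and the most abundant members, did not reach 2-fold, and most stretches of C1rb lie in other genes too, chiefly C1ra. From confluence to 24 h the log2 fold change was 3.34 for C3 and 1.75 for Cp, and from 14 d to 21 d 0.55 and 0.15. With limma-trend on log2(RPKM + 1) 3 members were called, and Lcn2 and Serping1 were not.

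Of 29 genes of hypoxia and glycolysis 9 were called higher and 1 lower, with a median of 0.68. Car9, a carbonic anhydrase and a known target of HIF-1, was at 0.189 and 0.251 RPKM in the confluent replicates and at 18.6 and 25.2 RPKM at 14 d. Bnip3, a mitophagy receptor, was at 6.77 and 6.25 RPKM in the confluent replicates and at 25.2 and 31.8 RPKM at 14 d, and Egln3, an oxygen sensor, at 0.0996 and 0.220 RPKM in the confluent replicates and at 2.01 and 2.06 RPKM at 14 d. Both 14 d replicates were above both confluent ones in each case, with log2 fold changes of 6.80 (SE 0.24, adjusted p = 8.4e-06), 2.35 (SE 0.17, adjusted p = 1.4e-04) and 3.81 (SE 0.36, adjusted p = 3.6e-04), the last being 4.56 without confluent replicate B. Within the index pairs Car9 was at 0.10 to 24 h and 0.40 after 14 d, Bnip3 (16.3% of its stretches shared) at 0.54 and 0.25, and Egln3 at 0.24 and 0.56. Ankrd37 had a log2 fold change of 4.93, but its exons overlap those of Ufsp2 on the opposite strand, which had more counts. Adm had 3 counts at confluence and 36 at 14 d, a ratio of 16.0 with a counting interval from 5.05 to 81.1, and no call with limma-trend on log2(RPKM + 1). The abundant glycolytic genes Pgam1 and Pkm, at 325 and 314 RPKM and 321 and 305 RPKM at confluence, had log2 fold changes of 0.50 and 0.14, and share 36.1% and 25.4% of their stretches with other genes. Vegfa and Slc2a1, common targets of HIF-1 named after their values were seen, were not called, at 0.48 and 0.10. Pfkfb3, also named afterwards, was the 1 called lower, at -1.48, and lost the call with any 1 replicate left out and with limma-trend on log2(RPKM + 1).

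Cholesterol and fatty acid synthesis had 16 lower calls and none higher among 28 tested of 29, with a median of -1.06, and 23 were lower at an adjusted p under 0.05 with any fold. Fdps, which makes farnesyl diphosphate, was at 249 and 249 RPKM in the confluent replicates and at 72.0 and 60.5 RPKM at 14 d. Lss, which closes the sterol rings, was at 21.6 and 19.1 RPKM in the confluent replicates and at 5.72 and 4.88 RPKM at 14 d, and Mvk, mevalonate kinase, at 71.5 and 77.2 RPKM in the confluent replicates and at 24.4 and 21.8 RPKM at 14 d. All the 14 d values were under the confluent ones, with log2 fold changes of -1.69 (SE 0.21, adjusted p = 0.0012), -1.73 (SE 0.19, adjusted p = 6.8e-04) and -1.47 (SE 0.13, adjusted p = 3.2e-04). Elovl6, which lengthens fatty acids, was at 17.9 and 15.1 RPKM in the confluent replicates and at 4.44 and 4.09 RPKM at 14 d, a log2 fold change of -1.73 (SE 0.13, adjusted p = 1.6e-04). Sc5d, of the last steps of the pathway, had one of -1.40. Hmgcs1, named after its value was seen, was at the 2-fold limit, with -1.01 (SE 0.12, adjusted p = 9.4e-04), and was not called with upper-quartile scaling, the stricter filters, or without confluent replicate A or 14 d replicate B. Fdps shares 26.1% of its stretches with other genes. Lower values were also found inside both index pairs. From confluence to 24 h the log2 fold change was -1.12 for Fdps, -1.55 for Lss, -0.89 for Mvk and -1.13 for Elovl6, and from 14 d to 21 d it was -2.64, -1.28, -1.04 and -1.51. Scd2, the most abundant member, had replicates at 302 and 305 RPKM at 14 d against 577 and 450.4 RPKM and did not pass (adjusted p = 0.59).

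Amino acid supply genes that respond to ATF4 had 7 lower calls and 1 higher among 17, with a median of -0.89. Chac1, a glutathione-degrading enzyme, was at 24.7 and 25.8 RPKM in the confluent replicates and at 5.27 and 4.12 RPKM at 14 d, with a log2 fold change of -2.21 (SE 0.15, adjusted p = 1.1e-04). Asns, asparagine synthetase, was at 82.5 and 77.2 RPKM in the confluent replicates and at 26.1 and 21.9 RPKM at 14 d, with -1.52 (SE 0.12, adjusted p = 1.8e-04). Slc7a5, a transporter of large neutral amino acids, was at 89.0 and 78.6 RPKM in the confluent replicates and at 30.4 and 26.3 RPKM at 14 d, with -1.35 (SE 0.13, adjusted p = 4.0e-04). Mthfd2, of mitochondrial one-carbon metabolism, and Sesn2, a leucine sensor, had log2 fold changes of -1.26 and -1.27. Psph, at -1.33, shares exon bases with Cct6a on the opposite strand, which had more counts. After 14 d the called genes named here were higher again. From 14 d to 21 d the log2 fold change was 2.53 for Chac1, 1.14 for Asns, 1.12 for Slc7a5 and 1.27 for Mthfd2, and from confluence to 24 h -0.45, -0.05, -0.43 and -0.18. Cebpg, the 1 called higher and chosen after its value was seen, was at 4.38 and 4.42 RPKM in the confluent replicates and at 7.57 and 7.72 RPKM at 14 d, a log2 fold change of 1.01, and 9 of 18 other settings did not call it, 14 d replicate B left out among them.

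In the ER, 19 genes of folding and the unfolded protein response had 2 higher calls, near the 9.15% of all tested genes, and none lower. The median was -0.23, and library size alone called 1 lower. The 2 higher calls were Dnajb9, a co-chaperone, at 1.16, and Ern1, the sensor IRE1, at 1.17. Neither was called with library size alone or in the limma-trend fits. Ern1 also lost its call with any 1 replicate left out. Calr, a calcium-binding chaperone, was at 362 and 349 RPKM in the confluent replicates and at 174 and 166 RPKM at 14 d and Pdia3, a disulfide isomerase, at 322 and 319 RPKM in the confluent replicates and at 240.0 and 230.1 RPKM at 14 d. Calr had a log2 fold change of -0.85 (SE 0.11, adjusted p = 0.0011) at 14 d and of 2.47 from 14 d to 21 d, and for Pdia3 the values were -0.23 and 1.22. Calr was called lower with library size alone and in the limma-trend fits.

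Antioxidant genes had 4 higher and 4 lower calls of 20, with a median of -0.40. The metallothioneins Mt1 and Mt2, which bind zinc and copper, were at 114 and 146 RPKM and 65.0 and 67.0 RPKM at confluence and at 807 and 576 RPKM and 585 and 484 RPKM at 14 d. They share no stretch of 51 bases with another gene, and their log2 fold changes were 2.62 (SE 0.32, adjusted p = 0.001) and 3.23 (SE 0.27, adjusted p = 2.4e-04). At 24 h these were already 2.58 and 3.43 over confluence. Sod3, the secreted superoxide dismutase, was at 13.8 and 14.5 RPKM in the confluent replicates and at 37.6 and 36.1 RPKM at 14 d, a log2 fold change of 1.6 (SE 0.07, adjusted p = 2.6e-05). Nqo1, a quinone reductase and NRF2 target, was lower, at 16.3 and 16.4 RPKM in the confluent replicates and at 5.54 and 4.88 RPKM at 14 d, with -1.43 (SE 0.10, adjusted p = 1.2e-04). Gsta4 had a log2 fold change of -2.47 and was not called without 14 d replicate B or with limma-trend on log2(RPKM + 1). Hmox1 and Txnrd1, further NRF2 targets called lower and named after their values were seen, had -1.24 and -1.08.

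Lysosomal genes had 1 call, higher, among 23, under the 9.15% of all tested genes, with a median of 0.35. Psap, a precursor of sphingolipid activators, was at 444 and 414 RPKM in the confluent replicates and at 652 and 633 RPKM at 14 d, with 0.80 (SE 0.10, adjusted p = 0.001), and Cd63, at 705 and 929.7 RPKM in the confluent replicates and at 764 and 717 RPKM at 14 d, did not pass.

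Clock genes had 4 higher calls and none lower among 15 tested of 16, with a median of 0.40. Bhlhe41, a repressor of the clock, was at 0.757 and 0.900 RPKM in the confluent replicates and at 9.05 and 8.53 RPKM at 14 d, and Per1, another one, at 6.99 and 6.95 RPKM in the confluent replicates and at 31.4 and 31.1 RPKM at 14 d. The stages did not overlap, and the log2 fold changes were 3.62 (SE 0.11, adjusted p = 5.9e-06) and 2.38 (SE 0.17, adjusted p = 1.2e-04). To 24 h they were 0.48 and 2.31, and from 14 d to 21 d 0.94 and -0.05. Rora had a log2 fold change of 1.44, and Cry1, at 1.0, lay at the 2-fold limit and was not called in 10 of 18 other settings, those without confluent replicate A or 14 d replicate B among them. The time of day of the harvests is not given in the sources used here. Limma-trend on log2(RPKM + 1) called 2 members, without Rora.

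Immediate early genes had 3 higher and 3 lower calls among 16, with a median of -0.27. Klf2, a Krüppel-like factor, was at 15.7 and 14.6 RPKM in the confluent replicates and at 71.2 and 78.8 RPKM at 14 d, with a log2 fold change of 2.53 (SE 0.15, adjusted p = 5.2e-05), and Jund, an AP-1 subunit, at 18.5 and 18.1 RPKM in the confluent replicates and at 40.8 and 44.3 RPKM at 14 d, with 1.44 (SE 0.15, adjusted p = 5.3e-04). Klf4 had 1.22 and was not called with library size alone or in the limma-trend fits. Fos, another AP-1 subunit, was at 9.76 and 8.80 RPKM in the confluent replicates and at 2.73 and 2.40 RPKM at 14 d, a log2 fold change of -1.64 (SE 0.14, adjusted p = 2.9e-04), which was -1.56 from confluence to 24 h and 0.97 from 14 d to 21 d. Egr2 had -1.38, and Fosl1, at -1.67, shares exon bases with Ccdc85b on the opposite strand, which had more counts. Library size alone called 6 members lower.

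Contractile genes and YAP targets had 4 lower calls and none higher among 18, with a median of -0.37. Acta2, smooth muscle actin, was at 1219.8 and 1161 RPKM in the confluent replicates and at 425 and 471 RPKM at 14 d, and Myl9, a myosin light chain, at 296 and 289 RPKM in the confluent replicates and at 94.6 and 106 RPKM at 14 d. Ankrd1, a target of YAP, was at 22.4 and 19.9 RPKM in the confluent replicates and at 7.18 and 7.18 RPKM at 14 d. The 14 d values of these 3 genes were under the confluent ones in both replicates, with log2 fold changes of -1.19 (SE 0.13, adjusted p = 6.9e-04), -1.33 (SE 0.18, adjusted p = 0.0016) and -1.34 (SE 0.13, adjusted p = 3.8e-04). Actg2 was the fourth, with -1.21. None of the 4 passed the test inside an index pair, where the changes to 24 h were 0.36, 0.38, -0.05 and 0.43, and those after 14 d 0.02, -0.08, 0.16 and -0.27. Library size alone called 6.

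Among the 21 histone lysine demethylases 2 were called, both higher, near the 9.15% of all tested genes called higher. The median was 0.30. The study singled out such genes between other stages of the series, so the list was not chosen without regard to these cells. Kdm7a, which acts on H3K9 and H3K27, was at 1.19 and 1.04 RPKM in the confluent replicates and at 6.93 and 6.63 RPKM at 14 d, a log2 fold change of 2.83 (SE 0.21, adjusted p = 1.5e-04). Kdm3a, which acts on H3K9, was at 8.56 and 7.80 RPKM in the confluent replicates and at 15.9 and 17.1 RPKM at 14 d, with 1.23 (SE 0.17, adjusted p = 0.0018), and it was not called with library size alone or with limma-trend on log2(RPKM + 1). Kdm1a had a log2 fold change of -0.28.

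Markers of other cell types were read in the same samples. Of 19 chondrocyte markers 17 were tested, with 10 called higher, 1 lower and a median of 1.22. Their summed level was 247 and 266 RPKM in the confluent replicates and 678 and 706 RPKM at 14 d, led by Pth1r, the receptor for parathyroid hormone, which osteoblasts also express. Pth1r was at 115 and 142 RPKM in the confluent replicates and at 376 and 396 RPKM at 14 d, with a log2 fold change of 1.80 (SE 0.15, adjusted p = 2.1e-04). Col2a1, the collagen of cartilage, was at 81.1 and 74.8 RPKM in the confluent replicates and at 202 and 210.4 RPKM at 14 d, a log2 fold change of 1.62 (SE 0.13, adjusted p = 2.0e-04), with -0.92 from confluence to 24 h and -1.52 from 14 d to 21 d. Sox9, the master factor of cartilage, was named after its values were seen and was at 16.5 and 14.4 RPKM in the confluent replicates and at 32.3 and 30.4 RPKM at 14 d, a log2 fold change of 1.24. Col9a1 had no count at confluence and at most 0.584 RPKM at 14 d, at least 133.6-fold higher, and Snorc had 1 count and then 142, a ratio of 189 with a counting interval from 33.4 to 7519. Acan, the main proteoglycan of cartilage, had no count at confluence and 13 at 14 d. Matn3, the 1 called lower, was at 1.85 and 2.17 RPKM in the confluent replicates and at 0.322 and 0.343 RPKM at 14 d, with -2.38 (SE 0.28, adjusted p = 9.7e-04). No chondrocyte marker was at 0 in all 4 samples, but 8 of the 19 were under 1 RPKM in all 4. The part of these genes in the bone mineral and matrix and collagen results above was not tested. With limma-trend on log2(RPKM + 1) 5 were called higher, without Sox9 and Col9a1, and with library size alone 7.

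Adipocyte markers were nearly silent, with 12 of 13 under 1 RPKM in all 4 samples and Cd36, Retn and Cfd at 0. Of 5 tested 1 was called higher, Plin4, at 0.00730 and 0.0161 RPKM in the confluent replicates and at 0.347 and 0.143 RPKM at 14 d, and the median was 0.62. Plin4 was not called with limma-trend on log2(RPKM + 1). Cebpa made up most of the summed 4.75, 5.53, 6.97 and 7.0 RPKM of confluent A and B and 14 d A and B. Of 10 skeletal muscle markers 6 were tested and 1 was called higher, with a median of 0.52, Myod1 and Myf5 at 0 and sums of 44.0, 40.6, 35.3 and 27.5 RPKM led by Acta1. Acta1 itself, at a log2 fold change of -1.0, was called lower in 11 of 18 other settings. The called one, Tnnc2, shares exon bases with Ube2c on the opposite strand, which had more counts. Osteoclast markers had 1 higher call, Itgb3, among 3 tested of 9, with a median of 0.60, sums of 109, 111, 145 and 139.6 RPKM led by Ctsk, which is also in the lysosomal list, and Calcr and Dcstamp at 0. Itgb3 was not called with limma-trend on log2(RPKM + 1). All 8 endothelial markers stayed under 1 RPKM, with Emcn and Cldn5 at 0 and sums of 0.0927, 0.0446, 0.105 and 0.144 RPKM. Vwf was the 1 called of 3 tested (median 1.75), though not without confluent replicate A or in the limma-trend fits. All 6 epithelial markers stayed under 1 RPKM too, with Epcam, Krt8 and Krt18 at 0, sums of 0.0960, 0.261, 0.181 and 0.0989 RPKM, and no call on Cdh1, the 1 tested, at a log2 fold change of 0.92 (adjusted p = 0.16).

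Leukocyte and macrophage markers gave 1 higher call of 10 tested of 12, near the 9.15% of all tested genes. The median was 0.14, or -0.09 with library size alone, and Ptprc, the pan-leukocyte marker, was at 0. The call was on Spi1, with 1 count at confluence and 15 at 14 d, a ratio of 20.0 with a counting interval from 3.07 to 841, and it was lost with any 1 replicate left out, with DESeq2, with the replicate letter as a block and in the limma-trend fits. Their summed level was 24.2 and 207.5 RPKM in the confluent replicates and 28.5 and 242.9 RPKM at 14 d. The difference between replicates came from Tyrobp, the most abundant member in the B replicates, at 0 and 179 RPKM at confluence and 0.497 and 214 RPKM at 14 d. Its counts are unlike those of other genes. In both B replicates and in 14 d replicate A, Nphs1, Aplp1, Kirrel2, Nfkbid, Tyrobp, Hcst and Nphs1os, neighbours on chr7:30413760-30487223, had counts that were 26, 17, 15, 12, 5, 4 and 2 times a unit, which was 2162 counts in confluent B and 788 in 14 d B. The multiples were exact except that of Nphs1 in confluent B, at 56214 counts or 26.001 units. The counts in 14 d A ran from 130 for Nphs1 to 10 for Nphs1os in the same proportions, and confluent A had 1 count for Nphs1 and 0 for the others. How these counts arose was not tested.

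Large changes were also found in genes outside these lists. Among called genes with at least 5 CPM, Gm15264, a pseudogene, had no count at confluence and 118 and 130.1 RPKM at 14 d, at least 3280-fold higher, but 49.3% of its stretches of 51 bases lie in other genes, chiefly Tuft1. Sash3, an adapter of lymphocyte signalling, had 1 count at confluence and 7.21 and 6.12 RPKM at 14 d, a ratio of 3025 with a counting interval from 542 to 119520. It was already higher at 24 h, with a log2 fold change from confluence of 9.32. Aqp2, a water channel known from the kidney, was at 0.0417 and 0.0459 RPKM in the confluent replicates and at 9.95 and 9.85 RPKM at 14 d, and Btla, a receptor of lymphocytes, at 0.0181 and 0.0285 RPKM in the confluent replicates and at 3.97 and 4.69 RPKM at 14 d. Their groups were far apart, with log2 fold changes of 7.97 (SE 0.22, adjusted p = 9.7e-06) and 7.61 (SE 0.26, adjusted p = 7.8e-06), beside 2.99 and 1.37 to 24 h and -0.12 and -0.03 after 14 d.

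A share of these changes lay side by side. Of the 12 largest rises 4 fall in 1 stretch of chromosome 3, chr3:94693556-94944758 on GRCm38, which was singled out after their values were seen. Its ends are those of the outermost called genes, Selenbp2 and Selenbp1, so the called genes themselves set the count, 4 higher and none lower of 8 tested, where 9.15% of all tested genes were called higher. Selenbp1 and Selenbp2, selenium-binding proteins, were at 0.260 and 0.303 RPKM and 0.143 and 0.234 RPKM at confluence and at 43.6 and 44.8 RPKM and 24.9 and 29.9 RPKM at 14 d, and they share 45.5% and 43.2% of their stretches, so reads may have been split between them. Cgn, cingulin of tight junctions, was at 0.00491 and 0.104 RPKM in the confluent replicates and at 21.2 and 23.4 RPKM at 14 d, with a log2 fold change of 8.54 (SE 0.71, adjusted p = 2.3e-04), or 12.26 without confluent replicate B, and 17% of its stretches lie in other genes, chiefly BC021767. Pogz and Psmb4, which lie between Cgn and Selenbp1, were not called, with log2 fold changes of 0.37 and -0.57. Gm26279, an snRNA gene between Psmb4 and Selenbp1, had no count at confluence and 96.5 and 106.5 RPKM at 14 d. It was not called either (adjusted p = 0.098). At 24 h against confluence Selenbp1 was at 3.12, Selenbp2 at 3.43 and Cgn at 4.16.

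The largest falls were on scarcer evidence. Cyp1b1, a cytochrome P450 of steroid and retinoid metabolism, was at 8.4 and 7.67 RPKM in the confluent replicates and at 0.436 and 0.455 RPKM at 14 d, and Lrp8, a lipoprotein receptor, at 3.80 and 3.33 RPKM in the confluent replicates and at 0.264 and 0.252 RPKM at 14 d. Syk, a tyrosine kinase known from blood cells, was at 2.50 and 2.18 RPKM in the confluent replicates and at 0.234 and 0.276 RPKM at 14 d. In these 3 genes both 14 d values lay far under both confluent values, with log2 fold changes of -3.96 (SE 0.19, adjusted p = 2.6e-05), -3.57 (SE 0.32, adjusted p = 2.9e-04) and -2.99 (SE 0.21, adjusted p = 1.2e-04). Fabp5, a fatty acid carrier, was at 36.6 and 42.6 RPKM in the confluent replicates and at 4.15 and 4.38 RPKM at 14 d, with a log2 fold change of -3.0 (SE 0.21, adjusted p = 1.1e-04), and its processed copies Gm6166 and Gm14328, which share 52.6% and 23.5% of their stretches with other genes, had -2.95 and -2.97. Scd4, a desaturase, went from 74.0 and 60.3 RPKM to 4.36 and 4.38 RPKM but was not called without confluent replicate A or without either 14 d replicate. Gm19013, Gm26581 and Plac9a had log2 fold changes of -7.63, -6.10 and -3.02, but share 96.8%, 85.3% and 99.7% of their stretches with other genes and lost the call without 14 d replicate A or without 14 d replicate B, Gm19013 also without either confluent replicate and Gm26581 without confluent replicate B. With the replicate letter as a block Gm19013 also lost its call. Without a confluent replicate the value of Plac9a was -3.66 or -1.83, and with the sum of the 2 lanes the log2 fold change of Gm26581 was -3.64 and not called. Over the first 24 h Cyp1b1 was at -0.11, Lrp8 at -1.5 and Fabp5 at 0.23, and from 14 d to 21 d at 0.51, 0.25 and -0.45.

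By level, Col1a1 was the most abundant gene at both stages once nuclear copies of mitochondrial genes are set aside. Gm29216, Gm10925, Gm28661 and Gm28437, such copies on chromosome 1, stood among the 10 highest at 14 d, but 97.1% to 100% of their stretches also lie in the mitochondrial genes mt-Co1, mt-Atp6, mt-Co2 and mt-Co3. Of these mt-Co1, mt-Co2 and mt-Co3 had 0 counts in every sample. Gm29216 was at 5988 and 5866 RPKM in the confluent replicates and at 13764 and 17315 RPKM at 14 d, a log2 fold change of 1.61 (SE 0.20, adjusted p = 0.0012). Gm28437 and Gm10925 were called too, at 1.41 and 1.03, the latter not with library size alone, no filter on low counts, the limma-trend fits, or without confluent replicate A or 14 d replicate B. Whether the reads came from the copies or from mitochondria was not tested. Col1a1, Sparc and these copies aside, the 10 highest at 14 d were pseudogenes of Rps12 and Tpt1 and the short Gm10076, none of which was called.

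**Figure D3:**
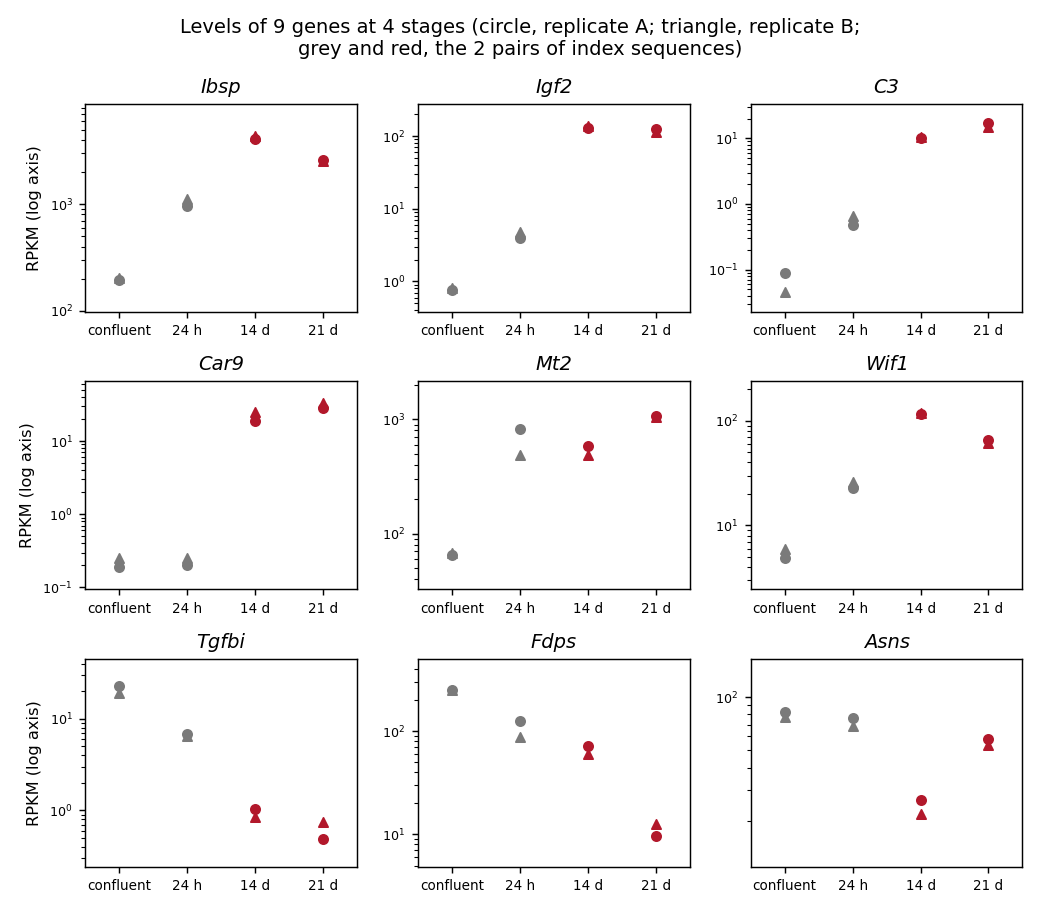
Levels of 9 genes in RPKM on log axes at confluence, 24 h, 14 d and 21 d, with circles for replicate A, triangles for replicate B, and grey and red for the 2 pairs of index sequences. Igf2 and C3 are higher at 24 h than at confluence inside the grey pair, Car9 is not called there, and Asns is lower at 14 d than at 21 d inside the red pair.

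Promoters of some lists were read for short motifs, from 250 bases before to 50 bases after each start, in the RefSeq table for GRCm38.p6. Motifs were searched on both strands, and a match describes the letters only, neither a site nor a cause. A gene was counted if any of its promoters matched, so the shares are of genes. TTTGAA, a cell cycle homology motif, was in 15 of the 20 mitosis genes with an entry (75.0%) and in 20.2% of all 27025 genes. TTTCGCGC was in 7 of 23 DNA replication genes (30.4% against 0.374%) and TTTGGCGC in 5 of 23 (21.7% against 0.585%), and Mcm5 and Mcm6 held both. TGATGNAA was in 5 of 16 amino acid supply genes (31.2% against 4.51%), and ACGTG in 18 of 25 hypoxia and glycolysis genes (72.0% against 21.8%). TGTGGT, the core of Runx motifs, was in 7 of 14 bone mineral and matrix genes (50.0% against 18.9%). GAAANNGAA was in 16 of 23 interferon-stimulated genes (69.6% against 9.76%), TGACNNNGC in 6 of 16 antioxidant genes (37.5% against 14.0%), and CACGTG and TTATGNAA in 5 and 2 of 14 clock genes (35.7% and 14.3% against 8.09% and 3.99%). CACGTG contains ACGTG. TCACNCCAC was in 1 of 19 cholesterol and fatty acid synthesis genes (5.26% against 1.44%). Bglap2, Fdps and Sqle were among the members with no entry.

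The promoters of called genes are shown so that the letters can be seen beside the values above, 5′ to 3′ on the gene's strand with the motif in capitals. For bone genes with TGTGGT these are Mepe at chr5:104325079-104325378 on the plus strand and Bglap at chr3:88384417-88384716 on the minus strand.
Mepe: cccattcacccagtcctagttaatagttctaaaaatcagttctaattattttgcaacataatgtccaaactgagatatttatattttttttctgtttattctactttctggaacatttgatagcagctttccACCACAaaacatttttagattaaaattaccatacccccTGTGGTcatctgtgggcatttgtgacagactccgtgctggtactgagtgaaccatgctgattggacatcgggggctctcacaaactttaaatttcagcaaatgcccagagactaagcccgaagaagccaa
Bglap: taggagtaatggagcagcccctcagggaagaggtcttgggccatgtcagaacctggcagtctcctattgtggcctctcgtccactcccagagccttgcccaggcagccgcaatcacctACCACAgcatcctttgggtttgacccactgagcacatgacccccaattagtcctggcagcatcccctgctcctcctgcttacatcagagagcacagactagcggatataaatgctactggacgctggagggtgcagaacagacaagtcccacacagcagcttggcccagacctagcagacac
Mitosis genes with TTTGAA are shown by Plk1 at chr7:122159185-122159484 on the plus strand and Aurka at chr2:172370521-172370820 on the minus strand.
Plk1: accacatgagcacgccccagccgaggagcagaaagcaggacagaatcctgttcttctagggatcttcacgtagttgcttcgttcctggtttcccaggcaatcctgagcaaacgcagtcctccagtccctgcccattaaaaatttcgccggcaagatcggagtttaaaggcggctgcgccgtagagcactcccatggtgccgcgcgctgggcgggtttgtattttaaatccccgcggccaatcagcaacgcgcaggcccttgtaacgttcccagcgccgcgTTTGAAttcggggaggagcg
Aurka: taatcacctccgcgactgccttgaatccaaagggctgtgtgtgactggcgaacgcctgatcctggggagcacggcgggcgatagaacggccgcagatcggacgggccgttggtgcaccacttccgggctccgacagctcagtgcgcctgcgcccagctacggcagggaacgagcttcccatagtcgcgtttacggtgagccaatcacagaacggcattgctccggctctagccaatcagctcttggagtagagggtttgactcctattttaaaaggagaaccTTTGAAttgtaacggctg
For DNA replication Orc1 at chr4:108579204-108579503 on the plus strand holds TTTCGCGC, and Mcm5 at chr8:75109259-75109558 on the plus strand holds both forms, which overlap.
Orc1: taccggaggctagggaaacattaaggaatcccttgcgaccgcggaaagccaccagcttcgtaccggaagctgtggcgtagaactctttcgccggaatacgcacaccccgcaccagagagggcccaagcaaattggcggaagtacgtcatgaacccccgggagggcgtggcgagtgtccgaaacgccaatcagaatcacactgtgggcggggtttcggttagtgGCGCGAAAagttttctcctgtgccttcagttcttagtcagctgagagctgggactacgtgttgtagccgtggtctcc
Mcm5: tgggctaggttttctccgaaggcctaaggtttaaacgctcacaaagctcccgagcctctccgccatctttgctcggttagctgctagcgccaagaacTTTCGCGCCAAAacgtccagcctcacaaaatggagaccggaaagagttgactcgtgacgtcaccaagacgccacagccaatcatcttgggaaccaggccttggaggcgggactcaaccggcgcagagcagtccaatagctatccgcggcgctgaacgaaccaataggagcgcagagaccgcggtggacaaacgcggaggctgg
Amino acid supply genes with TGATGNAA are shown by Chac1 at chr2:119350992-119351291 on the plus strand and Asns at chr6:7693160-7693459 on the minus strand.
Chac1: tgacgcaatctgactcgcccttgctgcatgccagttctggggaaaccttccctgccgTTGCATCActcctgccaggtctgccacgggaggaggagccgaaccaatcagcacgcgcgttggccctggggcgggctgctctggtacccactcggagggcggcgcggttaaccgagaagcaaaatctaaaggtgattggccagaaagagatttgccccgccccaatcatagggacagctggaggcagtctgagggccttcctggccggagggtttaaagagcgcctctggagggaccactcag
Asns: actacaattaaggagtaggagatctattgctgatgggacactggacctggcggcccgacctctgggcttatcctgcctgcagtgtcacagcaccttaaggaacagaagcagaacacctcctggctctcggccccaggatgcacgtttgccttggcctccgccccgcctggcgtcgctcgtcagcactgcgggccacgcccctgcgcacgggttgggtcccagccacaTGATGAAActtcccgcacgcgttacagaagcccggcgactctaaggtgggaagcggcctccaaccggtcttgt
Hypoxia genes with ACGTG are shown by Car9 at chr4:43506776-43507075 on the plus strand.
Car9: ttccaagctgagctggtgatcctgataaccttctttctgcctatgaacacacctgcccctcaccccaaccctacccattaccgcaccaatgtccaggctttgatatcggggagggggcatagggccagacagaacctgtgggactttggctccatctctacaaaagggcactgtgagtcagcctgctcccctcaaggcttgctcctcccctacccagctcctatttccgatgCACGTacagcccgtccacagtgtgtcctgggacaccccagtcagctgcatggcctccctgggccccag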

How the data were processed

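RNA was sequenced from 10 samples, 5 stages with replicates A and B. Read counts per gene were deposited for each library, from reads aligned to mm10 with TopHat2 2.0.9 per the labels, which also name FastQC and R 3.0.1. RPKM values, counts scaled by gene length and library size, and the gene lengths behind them were made by the authors and deposited beside the counts. The counting tool, its annotation and its use of strand are not given in the sources used here. Of 40620 genes 39632 got a symbol by identifier from GENCODE vM21, and the RPKM table held 40603 genes. The 14 d replicate A was sequenced in 2 lanes, and the deposited merged column was used, whose total is 1.39% above the lane sum of 134903841. 13526 genes differ between them, 273 by more than 4-fold.

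Counts of all 10 samples were fitted by stage with edgeR 4.0.16 in R 4.3.3 (filterByExpr, TMM, quasi-likelihood F-test, Benjamini-Hochberg adjustment over all tested genes), with no batch term. TMM factors were 1.09 and 1.05 for the confluent and 0.913 and 0.914 for the 14 d replicates. The SE is the absolute log2 fold change over the root of F. Levels are the authors' RPKM, read with pandas 2.3.3 in Python 3.11.15. Where a group had no count, folds were set against 3 counts over that group, and ratios of counts have 95% exact binomial intervals. The SD of log2 A/B over the 16133 genes that had 10 counts or more in each sample was 0.31 at confluence, 0.67 at 24 h, 0.32 at 14 d and 0.28 at 21 d.

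The 34 gene lists held 646 distinct genes, and lists and members were chosen with earlier results of these data known. Setting genes without counts in a group at their bound left every list's median as given. Named were the 12 largest rises and falls among called genes with at least 5 CPM and no overlap between groups, up to 6 called members and the 2 most abundant members of each list, Runx2, Sp7, Alpl, Bglap, Ibsp, Dmp1, Spp1, Col1a1, Col1a2, Kdm1a, Kdm7a, Mki67 and Cdkn1a, and the 10 genes highest in RPKM at each stage. Alternatives were other scalings, filters, thresholds and sample sets, DESeq2 1.42.0, limma 3.58.1 on log2 RPKM, a replicate block, the lane sum and each replicate left out. Some genes that the rule names are not reported here.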

Additional observations from a re-analysis of the deposited data

How the results depend on the processing

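Of 4543 alternative values of 256 genes, named by the rule or after their values were seen, 4333 kept their side of the threshold, 179 lost the call and 31 gained one. The sign changed in 61 values of genes called in neither setting and in 0 called ones, and 129 of 185 named calls held in every setting run. A further 65 values could not be computed. Of 1428 counts by list 1243 stayed within 1.5-fold. The 2705 calls (1903 higher, 802 lower) were 1784 (1182 higher) with at least 10 counts in every sample and 1722 (1150 higher) with a mean of at least 1 CPM, where fewer genes were tested. They were 2934 (2003 higher) without the 24 h samples, whose spread enters the main fit. With limma-trend on log2(RPKM + 1) they were 1343 (524 higher). Higher calls were 1220 and lower calls 1303 with limma-trend on log2(RPKM + 0.1), and lower calls were 1447 with library size alone. The cause was not tested. Without the fold threshold 6688 genes passed (3508 higher, 3180 lower), and past 4-fold 1121 (937 and 184). With a replicate left out, the lone sample being assumed to vary like the other groups, calls ran from 1970 to 2201, higher ones from 1332 to 1513 and lower ones from 597 to 688. No called gene was called in the opposite direction in any setting. Same-lettered samples of the 2 stages did not deviate together (r -0.195 over 15106 genes). With 2 samples a stage, and the deeper one B at confluence but A at 14 d, this cannot tell whether the letters mark pairs. With a replicate block 2502 genes were called (1753 higher, 749 lower). Crossing the letters of the late stages, chosen after seeing the data, gave 2509 (1759 and 750). The smallest libraries, at 49717716 and 48799711 counts, limit what can be seen of scarce genes.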

Other observations

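Some genes in no list had large differences in level and were chosen after their values were seen. Cst3, the protease inhibitor cystatin C, was at 188 and 227 RPKM in the confluent replicates and at 1684 and 1643 RPKM at 14 d, and Cpe, a carboxypeptidase of peptide hormone processing, at 38.1 and 36.4 RPKM in the confluent replicates and at 483 and 515 RPKM at 14 d. Their log2 fold changes were 3.22 (SE 0.21, adjusted p = 8.8e-05) and 3.96 (SE 0.11, adjusted p = 5.1e-06). Ptn, the growth factor pleiotrophin, was at 315 and 317 RPKM in the confluent replicates and at 78.2 and 74.2 RPKM at 14 d, and Sulf2, which trims heparan sulfate, at 143 and 124 RPKM in the confluent replicates and at 33.1 and 31.1 RPKM at 14 d, with log2 fold changes of -1.84 (SE 0.09, adjusted p = 2.8e-05) and -1.84 (SE 0.25, adjusted p = 0.0017). Gm6821, a pseudogene sharing 72.8% of its stretches of 51 bases with other genes, chiefly Paqr6, was at 9.09 and 10.8 RPKM in the confluent replicates and at 798 and 701 RPKM at 14 d.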
